A study of Mus musculus with 14 samples.

Results

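Of 16173 H3K4me3 peaks listed for cells overexpressing miR-93-5p, 2247 (13.9%) shared no base pair with any of the 14595 H3K4me3 peaks listed for scr control cells, and these 2247 regions are described here. The other 13926 peaks of the miR-93-5p list overlapped a scr peak by at least 1 bp and are called shared. The samples were a mouse cell line that the labels name LEPC, of strain C57BL/6, held for 3 passages, with the genotype scr, overexpress miR-93-5p or overexpress miR-93-5p mutant. Chromatin immunoprecipitation against H3K4me3, H3K27me3 and H3K9me3 was made in scr and miR-93-5p cells, and RNA-seq in scr, miR-93-5p and mutant cells, so that no chromatin library stands beside the mutant RNA. Each assay and condition had 1 library. There was therefore no replicate error and no test, and each difference below is a difference between libraries, in which culture and condition cannot be told apart. Intervals are exact (Clopper-Pearson) 95% binomial intervals, which cover counting error only. The regions were chosen by their peak calls, so their number, score and absence from the scr list are descriptions and support nothing by themselves.

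H3K4me3 is the trimethylation of lysine 4 of histone H3, deposited by the SET1 and MLL enzymes, and it marks the starts of active and poised genes, above all those in CpG islands. H3K27me3 is the mark of Polycomb repression, and its overlap with H3K4me3 at CpG-rich starts is called bivalent chromatin. H3K9me3 marks heterochromatin, including silenced repeats. miR-93-5p belongs to the miR-17 family of microRNAs, which lower the stability and translation of mRNAs they pair with.

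The promoters of 6 genes are printed as examples of gene starts that carried such a region. Each run below holds 300 bases of the RefSeq GRCm38.p6 assembly, 250 before and 50 after the annotated start, read 5′ to 3′ along the gene, with each CG dinucleotide and each match to TGANTCA in capitals. TGANTCA is the letter pattern of AP-1 sites. All coordinates of peaks elsewhere in the text are mm9, and the builds were never joined. Ifitm1 (chr7:140967826-140968125, plus strand) held the region with the highest score and had the highest RNA ratio of miR-93-5p to scr of any gene with a region in or near it, and its promoter had 5 CG.
Ifitm1: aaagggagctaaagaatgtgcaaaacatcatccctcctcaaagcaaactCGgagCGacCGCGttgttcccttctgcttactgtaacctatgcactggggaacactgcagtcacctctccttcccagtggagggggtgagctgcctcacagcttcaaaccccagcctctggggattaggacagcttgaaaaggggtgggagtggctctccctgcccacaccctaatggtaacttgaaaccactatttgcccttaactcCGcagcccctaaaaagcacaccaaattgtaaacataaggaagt
Rnf128 (chrX:139610370-139610669, plus strand) carried the highest-scoring region that held an annotated start, with 26 CG.
Rnf128: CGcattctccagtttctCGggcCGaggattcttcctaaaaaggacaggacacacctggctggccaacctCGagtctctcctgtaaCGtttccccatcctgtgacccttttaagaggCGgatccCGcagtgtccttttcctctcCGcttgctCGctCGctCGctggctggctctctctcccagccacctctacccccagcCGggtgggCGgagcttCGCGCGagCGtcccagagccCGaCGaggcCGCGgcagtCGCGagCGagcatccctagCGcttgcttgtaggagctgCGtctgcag
Sprr1a (chr3:92485832-92486131, minus strand) had no CG, matches to TGANTCA of which the first begins at base 105, and TATAAA at base 208.
Sprr1a: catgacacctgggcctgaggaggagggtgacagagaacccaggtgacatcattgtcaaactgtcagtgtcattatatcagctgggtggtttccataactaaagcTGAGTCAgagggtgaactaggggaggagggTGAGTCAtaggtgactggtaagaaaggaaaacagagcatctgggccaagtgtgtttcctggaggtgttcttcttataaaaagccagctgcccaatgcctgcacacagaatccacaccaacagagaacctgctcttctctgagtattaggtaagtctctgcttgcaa
Mmp13 (chr9:7272264-7272563, plus strand) had 1 CG in all, with TGANTCA at base 216 and TATAAA at base 235.
Mmp13: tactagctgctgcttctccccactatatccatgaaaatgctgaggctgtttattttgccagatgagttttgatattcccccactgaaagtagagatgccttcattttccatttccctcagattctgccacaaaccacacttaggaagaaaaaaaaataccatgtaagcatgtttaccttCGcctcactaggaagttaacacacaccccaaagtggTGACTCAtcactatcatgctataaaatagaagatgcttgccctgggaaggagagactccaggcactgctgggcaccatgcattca
Lgals2 (chr15:78855480-78855779, minus strand) had 6 CG and lay at a gene whose RNA was lower.
Lgals2: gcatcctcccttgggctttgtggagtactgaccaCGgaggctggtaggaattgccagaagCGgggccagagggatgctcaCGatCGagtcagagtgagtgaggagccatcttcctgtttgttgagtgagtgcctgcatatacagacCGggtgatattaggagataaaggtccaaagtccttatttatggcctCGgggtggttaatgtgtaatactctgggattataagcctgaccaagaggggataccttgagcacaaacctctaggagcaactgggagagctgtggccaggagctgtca
Copz2 (chr11:96849626-96849925, plus strand) had 24 CG and lay at a region under H3K27me3 in scr and not in miR-93-5p.
Copz2: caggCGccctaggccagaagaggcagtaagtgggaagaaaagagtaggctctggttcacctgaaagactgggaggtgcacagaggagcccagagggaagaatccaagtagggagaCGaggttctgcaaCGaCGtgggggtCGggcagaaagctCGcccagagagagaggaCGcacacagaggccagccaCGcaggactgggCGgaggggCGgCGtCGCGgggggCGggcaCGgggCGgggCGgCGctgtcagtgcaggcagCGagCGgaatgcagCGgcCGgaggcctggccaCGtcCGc
The matches are letters in a window and say nothing of a factor bound there. How often each pattern was found over all such starts is given below, and the 6 examples do not show it.

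Most of the regions were weak peaks. The authors' score per peak, which starts at 50 in both H3K4me3 lists, had a median of 81.5 in the regions, with quartiles of 62.4 and 121, against 3100 in shared peaks. A score under 100 was held by 1462 regions (65.1%) and by 686 shared peaks (4.93%), and a score of at least 500 by 14 regions (0.623%) and by 11079 shared peaks (79.6%). Of the miR-93-5p peaks with scores from 50 to 60, 75.2% had no scr counterpart. That share was 51.6% from 90 to 120, 17.7% from 220 to 300 and 1.69% from 500 to 1000, and of the peaks scoring 2000 or more a single one, at Ifitm1, was alone beside 9579 shared ones. The 744 scr peaks without a miR-93-5p counterpart were weak too, with a median score of 83.8. Signal that would have scored under 50 in scr is in neither list and was not examined.

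**Figure D1:**
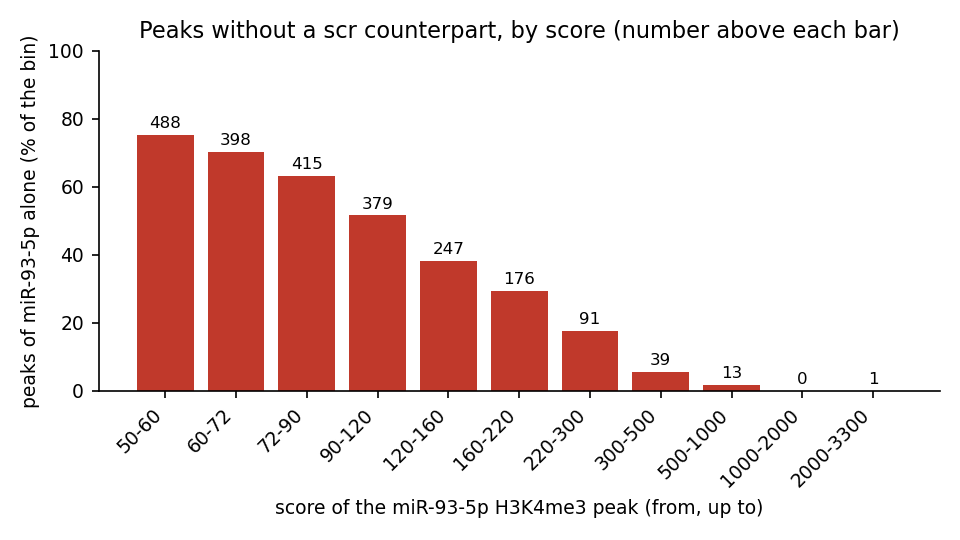
Share of miR-93-5p H3K4me3 peaks that overlap no scr peak (vertical axis, percent of the bin), by the score of the peak (horizontal axis, no unit), with the number of such peaks above each bar. The share falls from 75.2% in the lowest bin to 1.69% between 500 and 1000, and 1 peak remains above 2000.

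Since width and gene position moved with score in shared peaks, the regions were set against shared peaks within 5 score classes, the quintiles of the regions' own scores. In the top class shared peaks had a median score of 3100 against 187 in the regions, which is no match. Values limited to scores under 300, with 2194 regions and 2174 shared peaks in the same classes, are therefore given beside the planned ones; this limit was added after the files were seen. At like score the regions were as wide as shared peaks. Median widths in the first 4 classes were 765, 834, 928 and 1024 bp in the regions and 757, 822.5, 918.5 and 1062.5 bp in shared peaks. In the top class under a score of 300 they were 1291 and 1238 bp. Over all regions the median width was 943 bp (quartiles 758 and 1210, range 326 to 4629 bp).

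Most regions lay several kb from the nearest scr peak, and a part of them lay beside one. The gap to the nearest scr peak had a median of 20747 bp (quartiles 6069.5 and 58894.5 bp). It was at most 1 kb in 162 regions (7.21%), at most 5 kb in 503 (22.4%) and over 50 kb in 650 (28.9%). The regions just inside the rule lay 1 bp from a scr peak (chr12:85531005-85531826, score 65.59, nearest gene Pnma1), 2 bp (chr7:109056446-109057486, score 54.72, Tomt) and 20 bp (chr2:126774008-126774997, score 83.98, Sppl2a). Just outside it, shared peaks nearest Sestd1, Pogz and Slc16a10, with scores of 87.45, 80.76 and 96.11, overlapped a scr peak by 3, 3 and 6 bp. These peaks on either side of the rule had like scores. Another miR-93-5p H3K4me3 peak lay within 5 kb of 593 regions (26.4%), against 28.0% of shared peaks in the same classes and 29.1% of those under a score of 300. Per chromosome, the regions were spread from 2.76% of them on X to 8.72% on chromosome 11, where shared peaks had 2.87% and 8.31%.

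The regions were found away from gene ends. Of the 2247, 144 (6.41%, 5.43 to 7.50) came within 1 kb of either end of a protein-coding gene locus, 952 (42.4%) lay inside a locus farther from its end, and 1151 (51.2%) lay outside loci. Shared peaks of the same classes reached an end in 22.7%, and under a score of 300 the shares were 5.97% of regions and 11.8% of shared peaks. The order was the same in each of the 5 classes, the nearest being the lowest class with 6.22% and 9.80%. The distance to the nearest locus end had a median of 18021 bp in the regions. Gene loci and strands were incomplete in the tables used. On chromosome 8, Klhl36 and Pgbd5 were the nearest loci used to 9 and 7 regions that span 1065 and 2292 kb, so nearest genes and distances there are not those of a full gene map. Chromosome 18 had no strand for any locus, and chromosomes 8 and 15 had one for 67.5% and 55.5%. Without chromosomes 8 and 18, an alternative added after the files were seen, the median distance was 17506.5 bp, and 6.65% of regions against 22.8% of shared peaks in the same classes came within 1 kb of a locus end. Inside loci, under a score of 300, the shares were 42.5% of regions and 36.0% of shared peaks, and outside loci 51.5% and 52.2%. In the planned classes 31.6% of shared peaks lay inside loci and 45.7% outside.

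The shortfall was at the starts. The RefSeq promoter table gave a strand for 14800 of the 18479 loci (80.1%). With it, 61 regions (2.71%, 2.08 to 3.47) lay within 1 kb of a 5′ end, against 16.4% of shared peaks in the same classes, and under a score of 300 the shares were 2.37% and 7.15%. Without chromosomes 8 and 18 the latter were 2.47% and 7.65%. At 3′ ends the shares under a score of 300 were 1.91% and 1.90%. By class the share at 5′ ends was 1.78%, 1.78%, 2.45%, 2.23% and, under 300, 3.78% in the regions. In shared peaks it was 7.84%, 4.95%, 5.97%, 8.85% and 8.29%. Ends of RNA-seq loci, which were assembled in each library, were likewise less often near the regions: 125 regions (5.56%) had a scr locus end within 500 bp, 105 (4.67%) a miR-93-5p one and 111 (4.94%) a mutant one. Under a score of 300 these were 5.29%, 4.42% and 4.51% of regions, against 8.06%, 6.58% and 6.86% of shared peaks. A locus end found in miR-93-5p RNA and not in scr RNA stood at 32 regions (1.42%), and the reverse at 52 (2.31%). Under a score of 300 these were 1.28% and 2.14% of regions, against 1.63% and 3.11% of shared peaks.

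**Figure D2:**
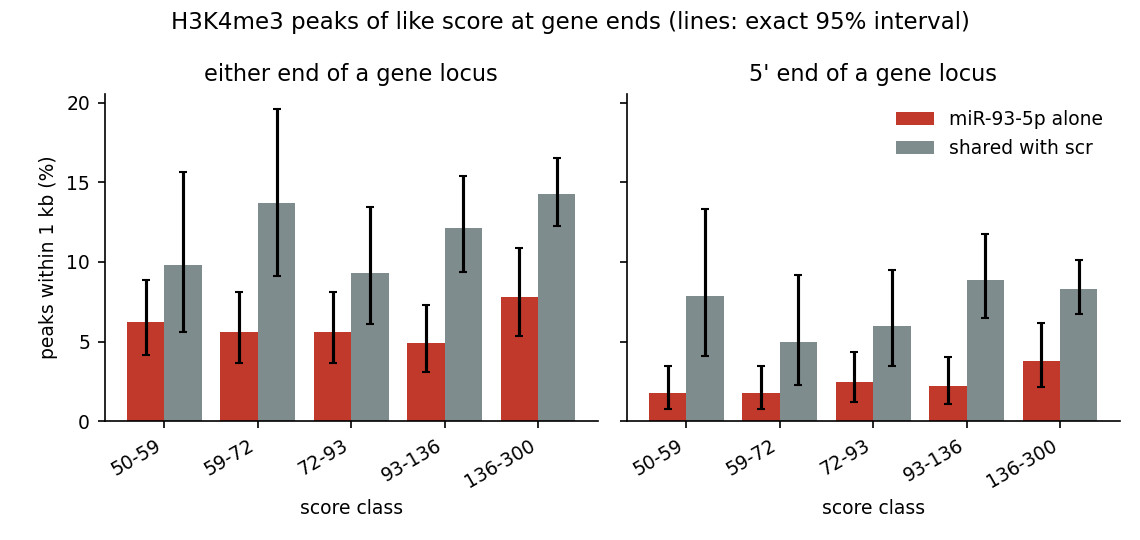
Percent of H3K4me3 peaks within 1 kb of a gene locus end (vertical axes; left, either end; right, the 5′ end) by score class (horizontal axes, no unit), for regions of miR-93-5p alone and shared peaks, the top class limited to scores under 300. Lines are exact 95% intervals, and in each class the regions' bar is the lower one, with intervals that overlap in several classes.

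The 61 regions at starts belonged to 61 genes. Each peak was given to its nearest start alone, and by this 7 of the 61 also had a shared peak within 1 kb and 54 did not. The highest-scoring was the region at Ifitm1, an interferon-induced membrane protein that hinders the entry of viruses. It spanned chr7:148153603-148158231, was 4629 bp wide, the widest of all regions, and scored 2181.87. It began 483 bp inside the gene (chr7:148153120-148155724, plus strand) and ran past its other end, and the nearest scr peak lay 11134 bp away. The next was at Rnf128, a membrane-bound ubiquitin ligase (chrX:136097638-136100660, score 713.14), 43316 bp from a scr peak. Regions also held or neared the starts of Cxcl15, a chemokine that attracts neutrophils (chr5:91222949-91226663, score 549.62, 3715 bp wide), Fgb, the fibrinogen beta chain (chr3:82851656-82853225, score 526.62, 500 bp from the start), C1qtnf6, a secreted C1q-like protein (chr15:78358914-78360502, score 478.34), and Copz2, a coat protein of transport vesicles (chr11:96710781-96712252, score 421.83). Lower down the list of scores came Sprr1a, a precursor of the cornified envelope of squamous epithelium (chr3:92288041-92289866, score 282.86), whose nearest scr peak was 402196 bp away, and Mmp13, a collagenase (chr9:7272342-7274573, score 227.29). C3, the central complement protein, had one of score 149.49, and Csf2, the growth factor GM-CSF, one of 97.84.

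The start genes often had CG-poor promoters, as the sequences printed above show for Ifitm1, Sprr1a, Mmp13 and Lgals2. RefSeq gave 1 promoter each for 46 of the 54 start genes without a shared peak there. Their median was 5 CG in 300 bases (quartiles 3 and 12.5), against 12 at 110 starts whose shared peaks all scored under 300, 22 at 5638 starts with any shared peak, and 5 at 6618 starts given no H3K4me3 peak of miR-93-5p. A promoter with at most 5 CG was found in 24 of the 46 (52.2%), in 20.9% of those with weak shared peaks, in 4.15% of those with any shared peak and in 52.1% of those given no peak. Over all 12302 promoters the share was 30.1%. In CG content the starts of the regions were thus near those of genes given no peak of miR-93-5p. Rnf128 and Copz2, with 26 and 24 CG, were among the exceptions. A second start under the same peak counts as given none, so the set given no peak can hold starts that carry the mark.

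Of 6 other letter patterns, each searched on both strands, GGGCGG and TGANTCA were the ones whose shares differed most from those over all promoters. GGGCGG, the core of the GC box, was in 17 of 46 (37.0%), against 50.9% at weak shared peaks, 70.4% at any shared peak and 49.1% over all promoters. In promoters given no peak it was in 31.1%. TGANTCA was in 9 of 46 (19.6%), against 12.7%, 4.06% and 6.95%, and in 9.32% of promoters given no peak. TATAAA was in 8 (17.4%), against 10.9%, 6.12% and 12.9%, and in 18.7% of promoters given no peak. CCAAT was in 34.8% (39.2% over all), CACGTG in 4.35% (8.33%) and a STAT-like pattern in 15.2% (12.2%). GGGCGG holds a CG and moves with CG content. The comparisons rest on 46 promoters and were not tested.

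**Figure D3:**
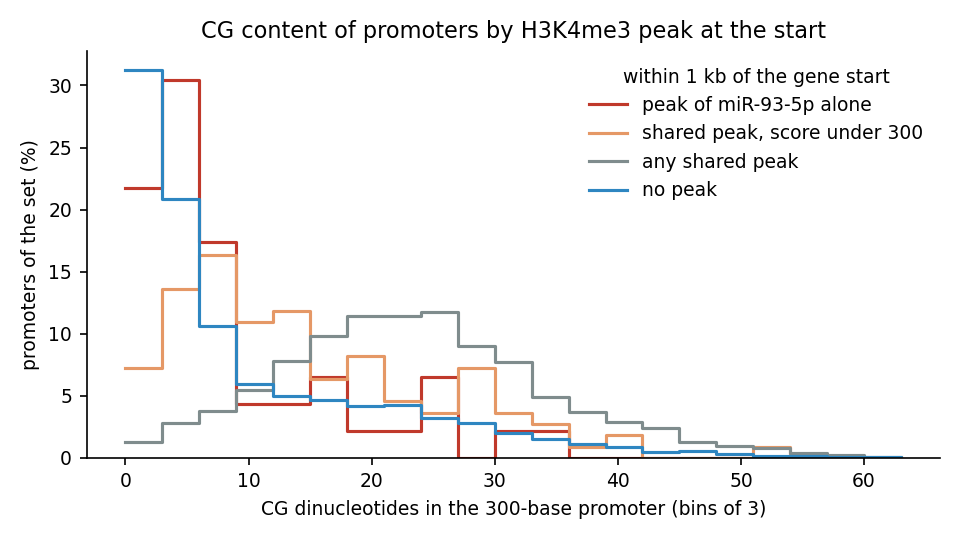
Number of CG dinucleotides in 300-base promoters (horizontal axis, bins of 3) against the percent of each set of promoters (vertical axis), by the H3K4me3 peak within 1 kb of the start. Each peak was given to its nearest start alone. The line for regions of miR-93-5p alone (46 promoters, median 5) lies near that of starts given no peak (median 5), left of weak shared peaks (median 12) and of any shared peak (median 22).

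Away from starts, the strongest regions lay inside or beside genes of varied kinds. A region of score 862.82 (chr16:5134144-5137798) lay 1570 bp from the locus of Ppl, periplakin of the desmosomal plaque, and 861 bp from a scr peak. One of 660.09 (chr5:105773810-105776126) was 68668 bp from Lrrc8b, a subunit of volume-regulated anion channels. One of 616.57 (chr13:52069929-52072232) was 126092 bp from Gadd45g, a stress-induced growth arrest gene, and 120427 bp from any scr peak. Regions of 591.21 in Tmbim1 (chr1:74341394-74344458) and 558.18 near Scd3, a fatty acid desaturase (chr19:44354954-44356703), lay 991 and 1012 bp from scr peaks. The others among the 10 highest were in Speg, a kinase of striated muscle (chr1:75395893-75397921, score 531.45), and in Zbtb7c, a zinc finger gene (score 544.43). Lasp1, an actin-binding protein, held one of the 5 widest (chr11:97672322-97675820, 3499 bp, score 346.5), and another, 139212 bp from Klf14, was 3180 bp wide and scored 138.55. Thus 6 of the 10 strongest regions were over 5 kb from a gene end, and distance to a scr peak varied from under 1 kb to over 100 kb.

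Of the other 2 marks, both measured in libraries the rule did not use, neither covered many regions. No H3K27me3 or H3K9me3 peak of either condition touched 2114 regions (94.1%), against 91.9% of shared peaks under a score of 300 and 94.3% of the regions under that score. H3K27me3 of scr was on 72 regions (3.20%, 2.52 to 4.02), against 5.15% of shared peaks in the same classes, and under a score of 300 on 3.14% of regions and 5.42% of shared peaks. H3K27me3 of miR-93-5p was on 23 regions (1.02%, 0.650 to 1.53), against 0.871% in the same classes and, under 300, 0.957% against 1.04%. H3K9me3 of scr was on 29 (1.29%, 0.866 to 1.85) and of miR-93-5p on 46 (2.05%, 1.503 to 2.72), against 1.43% and 2.61%. The interval of the regions' share held the shared peaks' share for H3K27me3 of miR-93-5p and both H3K9me3 lists, and did not for H3K27me3 of scr.

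At 16 regions H3K27me3 was listed in both conditions, at 56 (2.49%) in scr and not miR-93-5p, and at 7 in miR-93-5p and not scr. Shared peaks under a score of 300 lay under H3K27me3 of scr and not of miR-93-5p in 4.64%, against 2.46% of the regions. Under H3K27me3 of both conditions they lay in 0.781%, against 0.684% of the regions. For miR-93-5p and not scr the shares were 0.262% and 0.273%. For H3K9me3 the counts were 20 in both, 26 in miR-93-5p and not scr, and 9 in scr and not miR-93-5p. Under a score of 300 these were 0.866%, 1.14% and 0.365% of regions, against 1.10%, 1.55% and 0.294% of shared peaks. The lists themselves differed in extent. H3K27me3 peaks covered 60.01 Mb in scr (44412 peaks, median width 1049 bp) and 23.7 Mb in miR-93-5p (43501 peaks, 473 bp), and 34.0% of the scr ones were met by a miR-93-5p one. H3K9me3 peaks covered 21.6 Mb in scr and 39.2 Mb in miR-93-5p. The part of these extents in the counts was not tested.

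**Figure D4:**
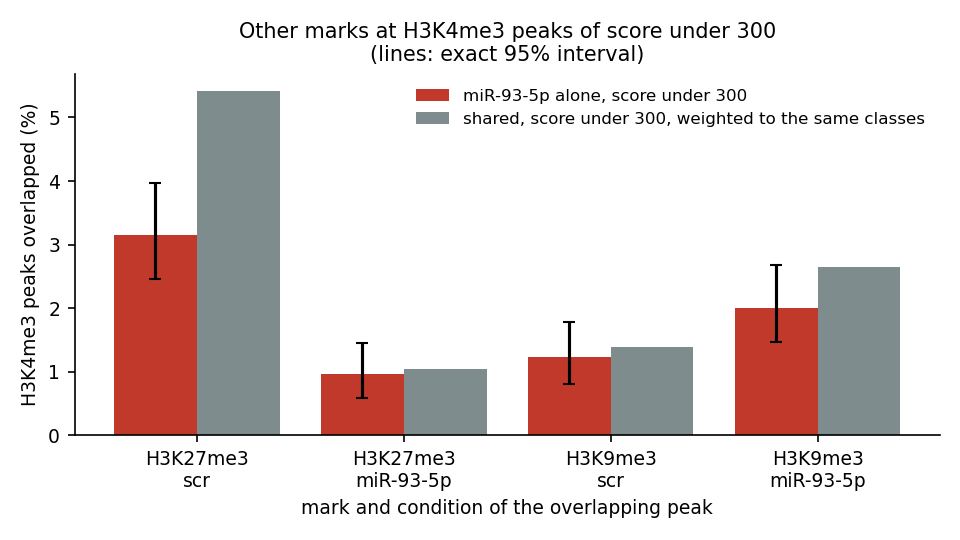
Percent of H3K4me3 peaks with a score under 300 that are overlapped by at least 1 bp by a peak of another mark (vertical axis), by mark and condition (horizontal axis), for regions of miR-93-5p alone (2194, with exact 95% intervals) and shared peaks weighted to the same score classes (2174, no interval drawn). Only for H3K27me3 of scr, with 3.14% against 5.42%, does the shared bar stand above the regions' interval.

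Of the regions with H3K27me3 in both conditions, the highest-scoring was the one in Speg. The next were at the starts of Mgarp, a mitochondrial protein (chr3:51199933-51201156, score 253.84), and Gpr176, an orphan receptor (chr2:118198352-118199430, score 145.53), which also lay under H3K9me3 of miR-93-5p. The others were inside Ak8, an adenylate kinase (score 89.46), and beside Slc2a4, the insulin-responsive glucose transporter (chr11:69761853-69762793, score 84.36). Under H3K27me3 of scr and not of miR-93-5p were regions at the start of Copz2, near Syndig1l (score 349.8), in Des, the muscle intermediate filament desmin (chr1:75358259-75359724, score 245.73), near Nxph3, a neurexophilin (score 192.52), and one 300215 bp from the nearest locus used, Klhl36 (score 195.73). None of Speg, Mgarp, Gpr176, Ak8, Slc2a4, Copz2, Syndig1l, Des and Nxph3 had an RNA-seq locus matched to it in all 3 libraries. Under H3K9me3 the highest were in Adcy9, an adenylyl cyclase (chr16:4415870-4418497, score 463.66, miR-93-5p), Mdga1 (390.45, both), near Cdk18 (309.44, scr), near S100a11, a calcium-binding protein (270.59, miR-93-5p), and in Cda, cytidine deaminase (242.84, scr). In Adcy9 RNA was 2.42 FPKM in scr against 3.48 in miR-93-5p and 3.93 in mutant. In Cda it was 11.02, 10.4 and 14.5 FPKM.

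RNA of the genes nearest the regions was at about the level of all genes. RNA-seq values are FPKM, fragments scaled to the length of the transcript model and to the size of the library, and log2 ratios were taken after adding 1. In bulk RNA fewer cells of a type and less RNA per cell cannot be told apart. Of 8420 genes compared, 1075 were nearest to 1336 of the regions. The median over those regions was 15.0 FPKM in miR-93-5p, 14.7 in scr and 14.7 in mutant, and the median log2 ratio for miR-93-5p to scr was 0.09, against 0.05 for shared peaks under a score of 300 and 0.03 for all genes. A gene at least 2-fold higher in miR-93-5p was nearest to 48 regions (3.59%, 2.66 to 4.74), while 2.97% of all genes were higher by that much. One at least 2-fold lower was nearest to 66 (4.94%, 3.84 to 6.24), with 3.86% of all genes lower. Shared peaks under a score of 300 had 3.06% and 4.50%. The intervals take each region as separate, although several regions can share a nearest gene. Among the 66, 9 were regions around Klhl36 on chromosome 8, where loci were missing. Without chromosomes 8 and 18 the regions' shares were 3.64% and 4.45%, against 2.78% and 3.86% of shared peaks in the same classes. In mutant over scr, which uses the same scr library, 36 regions (2.69%) had a nearest gene at least 2-fold higher and 41 (3.07%, 2.21 to 4.14) one lower, with 2.64% and 3.63% of all genes. Shared peaks in the same classes had 2.28% and 4.81%, and under a score of 300 they had 2.22% and 5.11%. For lower genes in mutant both shared values lay above the regions' interval. By FPKM the regions' shares were near those of all genes in both directions.

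Because FPKM depends on the transcript models, which each library assembled anew, the fragments implied by the bounds of each FPKM value were compared as well. By implied fragments 11.1% of the regions had a nearest gene at least 2-fold higher and 9.12% one lower, beside 7.55% and 7.66% of all 8120 genes and 9.20% and 9.64% of shared peaks in the same classes. The side on which the regions stood from shared peaks for lower genes thus turned with the measure.

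Where a region lay within 1 kb of a gene end, 41 genes could be compared, and more of them were past 2-fold than among all genes, as was also so at weak shared peaks. At least 2-fold higher were 4 of the 41 (9.76%), Ifitm1, Ly6a, Ccn5 and Sprr1a. At least 2-fold lower were 8 (19.5%), among them Tmem107, Ttc36, Mkln1, Vsig1, Pklr, Lgals2 and Ddc. At shared peaks under a score of 300 within 1 kb of an end, 7 of 93 genes were higher (7.53%) and 15 lower (16.1%). Of the 61 genes with a region at the start, 18 could be compared. Of these 2 were higher (Ifitm1, Sprr1a), 4 were lower (Ddc, Lgals2, Pklr, Vsig1), and the median log2 ratio was -0.19. Vsig1 also had a shared peak within 1 kb of its start, and its region lay 992 bp from the start and 214 bp from a scr peak. By implied fragments 2 of the 18 were higher, Ifitm1 and Zbtb38, and 5 were lower. An H3K4me3 peak called in miR-93-5p alone thus stood beside higher RNA at some starts and beside lower RNA at others.

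**Figure D5:**
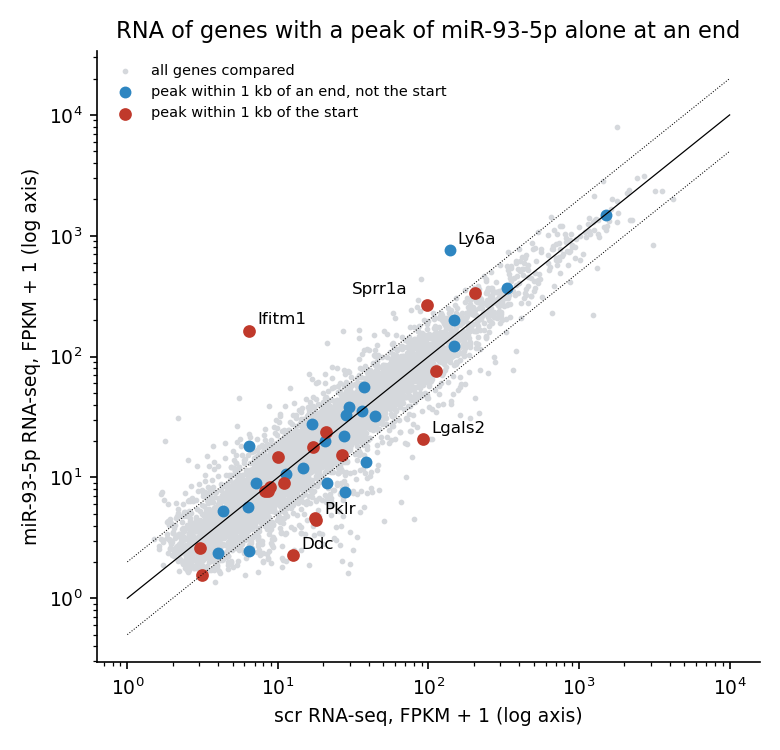
RNA-seq level in scr (horizontal axis) and in miR-93-5p (vertical axis), both FPKM plus 1 on log axes, 1 point a gene, 1 library a condition. Colours mark genes with a region of miR-93-5p alone within 1 kb of the start or of an end, the solid line equality and the dotted lines 2-fold. Ifitm1 and Ly6a stand above the lines, Ddc, Lgals2 and Pklr below, and most coloured genes lie between them.

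Ifitm1 RNA was 5.41 FPKM in scr (bounds 4.19 and 6.63), 163 in miR-93-5p (154 and 172) and 22.9 in mutant (20.5 and 25.4). The bounds are those deposited with each value, and the miR-93-5p value lay far above both others, with log2 ratios to scr of 4.68 in miR-93-5p and 1.90 in mutant. By implied fragments the log2 ratio of miR-93-5p to scr was 3.78. Ly6a, the stem cell antigen Sca-1, was at 137 FPKM in scr against 755 in miR-93-5p and 569 in mutant. Its log2 ratio for miR-93-5p was 2.45 by FPKM and 0.31 by implied fragments, and its region was weak (chr15:74828433-74828936, score 62.32, 116 bp from a scr peak). Sprr1a was at 96.1 FPKM in scr against 267 in miR-93-5p and 606 in mutant, so that it was higher in mutant than in miR-93-5p. Its log2 ratio for miR-93-5p was 1.47 by FPKM and -0.25 by implied fragments, which turns the direction. Ifitm1, Ly6a and Sprr1a belong to families of close paralogs in clusters, whose reads the counting could have split.

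Ccn5, a matricellular protein, was at 5.41 FPKM in scr against 17.2 in miR-93-5p, with 6.48 in mutant, and its region lay under H3K27me3 of scr. The other 4 genes named for being at least 2-fold higher were ones with a region inside the locus or within 5 kb of it. Lhfp was at 4.23, 14.4 and 6.06 FPKM in scr, miR-93-5p and mutant. Elmo1, an activator of the GTPase Rac, was at 4.76, 14.2 and 15.0 FPKM. Cux1, a homeodomain factor, was at 26.98, 70.9 and 59.99 FPKM, with a log2 ratio for miR-93-5p of 1.36 that was 0.71 by implied fragments. Etv4, an ETS family factor, was at 4.25, 12.2 and 11.03 FPKM, but the bounds were 0 and 48.4 for miR-93-5p and 0 and 368 for mutant, too wide to order the conditions. In Elmo1 and Cux1 the mutant value was near that of miR-93-5p, whereas in Ifitm1, Ccn5 and Lhfp it lay nearer to scr.

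Of the genes named for the lowest ratios, Ddc, Pklr, Lgals2 and Vsig1 had a region within 1 kb of the start, and Slc40a1, Myrf and Padi2 had one inside the locus. Ddc, which decarboxylates aromatic amino acids, was at 11.6 FPKM in scr against 1.27 in miR-93-5p and 2.60 in mutant, although a region of score 78.11 (chr11:11797377-11798471) held its start in miR-93-5p. Pklr, the pyruvate kinase of liver and red cells, was at 16.8, 3.45 and 9.74 FPKM, with a region of score 151.89 (chr3:88940196-88941591) 132 bp from its start. Lgals2, a galectin, was at 91.2, 19.7 and 65.1 FPKM, with a region of score 105.48 (chr15:78685489-78686459) over its start. In these 3 genes the mutant value lay between the others.

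Vsig1, a junctional membrane protein, was at 16.5 FPKM in scr against 3.65 in miR-93-5p and 23.9 in mutant. Slc40a1, the iron exporter ferroportin, was at 23.4, 2.86 and 5.10 FPKM, the lowest ratio, -2.66 on the log2 scale. Myrf, a membrane-bound transcription factor, was at 71.5, 17.8 and 50.5 FPKM. Padi2, a protein-arginine deiminase, was at 12.8, 3.03 and 4.78 FPKM. The log2 ratios of Ddc, Lgals2, Pklr, Vsig1, Slc40a1, Myrf and Padi2 for miR-93-5p ranged from -2.66 to -1.78, and none turned direction by implied fragments.

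The strongest regions had nearest genes with lower, similar and higher RNA, and for some of them the answer turned with the measure. At Ppl RNA was 34.1 FPKM in scr against 10.6 in miR-93-5p and 7.68 in mutant. At Rnf128 it was 111, 74.7 and 97.3 FPKM. Tmbim1 was at 21.2, 21.7 and 20.8 FPKM. Lasp1 was at 152, 150 and 129 FPKM, but its log2 ratio of miR-93-5p to scr was -0.02 by FPKM and 2.69 by implied fragments. Zbtb38, a zinc finger protein that binds methylated DNA, had a region of score 329.19 at its start and was at 8.99, 13.7 and 10.2 FPKM. Its log2 ratio was 0.55 by FPKM and 1.68 by implied fragments, past 2-fold by the second measure only. C3 was at 25.5, 14.4 and 2.89 FPKM, with a log2 ratio for miR-93-5p of -0.79 by FPKM and 0.49 by implied fragments, so that its direction turned as well. Fgb RNA reached 1.82 FPKM in scr against 0.4998 in mutant, with no matched locus in miR-93-5p. Mmp13 was at 0.779 FPKM in miR-93-5p and 0.979 in mutant, with none in scr. Of the 6 among the 10 highest-scoring regions whose nearest gene could be compared, only the one at Ifitm1 had a gene at least 2-fold higher by FPKM.

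Few genes of the lists examined had a region within 5 kb of an end of the locus. Regions inside a locus and farther from its ends are left out of these counts. With regions inside the nearest locus counted too, 1066 genes had one. Within 5 kb of an end, 461 of all 18479 loci had a region (2.49%), while 9036 (48.9%) had a shared peak. Of 183 genes on pathway and target lists 6 did (3.28%). They were Ifitm1 among 19 interferon response and antigen presentation genes, Krt8 and Krt19 among 17 epithelial genes, Lhx1 and Pax8 among 37 developmental transcription factors, and Grin1, a glutamate receptor subunit, among 18 neuronal genes. None of 20 chemokine and inflammation genes, 21 mesenchymal and matrix genes, 31 signalling ligands and receptors or 21 reported targets of the miR-17 family had one. Lists this short can hold none at the 2.49% share of all loci. Cxcl15, a chemokine gene with a region at its start, was not on the list examined. Apart from the one at Ifitm1, the regions at the 6 list genes were weak, between 61.41 at Krt19 and 85.43 at Lhx1. Krt8, a keratin of simple epithelia, was at 658 FPKM in scr against 230 in miR-93-5p and 283 in mutant, with a region of score 63.12 at 2165 bp from its end. Its log2 ratio for miR-93-5p was -1.51 by FPKM and -0.24 by implied fragments. Krt19 was at 418 FPKM in miR-93-5p and 522 in mutant, with no matched locus in scr.

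The labelled cell line was checked against marker genes, of which 3 of 48 (Krt19, Foxa3 and Des) had a region within 5 kb of a locus end. Of 12 hepatocyte markers, 7 had a matched locus in scr, from 0.969 FPKM for Ttr to 40.6 for Hnf4a, and Alb, serum albumin, was at 1.30. Hnf4a was at 7.22 FPKM in miR-93-5p and 27.4 in mutant. Foxa3, whose region scored 54.63, was at 4.21, 1.94 and 5.26 FPKM in scr, miR-93-5p and mutant. Biliary and progenitor markers were high, with Spp1 at 531 FPKM in scr and 1076 in miR-93-5p. None of 8 endothelial markers had a matched locus, and of 8 leukocyte markers Csf1r (7.63 FPKM in scr and 1.16 in miR-93-5p) and, in scr alone, Cd68 did. Of 10 stellate and fibroblast markers Dcn alone had one, in mutant, at 0.988 FPKM. A gene without a matched locus is not thereby at 0.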

How the data were processed

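H3K4me3, H3K27me3 and H3K9me3 peak lists of scr and miR-93-5p cells and RNA-seq of scr, miR-93-5p and mutant cells were used, 1 library each. The authors deposited a score for each peak, whose scale is not given in the sources used here. RNA-seq values are FPKM per assembled locus with lower and upper bounds, per the file headers. TopHat2, Cufflinks, Cuffdiff, CASAVA 1.4, Bowtie, MACS and mm9 are named, per the submitters' processing notes, and their settings are not given in the sources used here. Read depth per library is not given there either. The input samples were not analysed here. The deposited pulldown tables served only for 35620 mm9 gene loci that they give with a value of 0. A symbol was found for 31023, and 18479 protein-coding loci were kept. Strand came from the RefSeq promoter table, matched by symbol. Among shared peaks 6845 held a 5′ end so assigned and 128 a 3′ end alone.

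Peaks were compared by overlap of at least 1 bp, and shares of shared peaks were averaged over the 5 score classes with the regions' numbers as weights. An RNA-seq locus was given to a gene where their overlap reached 0.5 of the length that both span together, and genes with a mean of at least 1 FPKM over the libraries were compared. Log2 ratios use a pseudocount of 1 and understate changes of low genes. Implied fragments were computed from the width of the FPKM bounds. Regions were named by a rule: the 10 highest scores, the 5 widest, the 8 largest rises and 8 largest falls of the nearest gene (at least 2-fold, within 5 kb or inside), the 5 highest under each mark pattern, list genes with a region within 5 kb of a locus end up to 4 a list, and the 3 on either side of the overlap limit. 1 gene that the rule names is not reported here. The other regions at gene starts were named after their values were seen. Members and lists were chosen with earlier results of these data known. The overlap and class steps were tested on simulated data. Alternatives were a score of at least 100, a 1 kb gap, other overlaps, 5 kb ends, a pseudocount of 0.1, no FPKM filter, a locus match of 0.9 and implied fragments, and, added after the files were seen, a score under 300, 5′ ends alone and leaving out chromosomes 8 and 18. Python 3.11.15 with pandas 2.3.3, numpy 2.4.6, scipy 1.17.1 and matplotlib 3.10.9 was used.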

Additional observations from a re-analysis of the deposited data

How the results depend on the processing

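The number of regions fell from 2247 to 1367 when only peaks of score 100 or more were used in both libraries, and to 785 when such miR-93-5p peaks were set against all scr peaks, where the median width was 1202 bp and the median score 143.73. Within 5 kb in place of 1 kb of a locus end lay 21.2% of the regions, and within 1 kb of 5′ ends alone, added after the files were seen, 2.71%. With the H3K4me3 peak covered over at least 50% of its length, the share under H3K27me3 of scr was 1.69%, of miR-93-5p 0.223%, and under H3K9me3 of scr 0.579% and of miR-93-5p 0.668%. With a score of 100 or more for the other mark these were 1.78%, 0.134%, 0.801% and 1.07%. The order against shared peaks turned for H3K27me3 of miR-93-5p under both of these, at a score of 100 or more (0.637%) and under a score of 300 (0.957%, added after the files were seen). It turned for H3K9me3 of scr at a score of 100 or more for the H3K4me3 peak (1.78%) and for the other mark, and for H3K9me3 of miR-93-5p at a score of 100 or more for the H3K4me3 peak (3.06%). Nearest genes at least 2-fold higher made up 5.01% with a pseudocount of 0.1 and 11.1% by implied fragments. For those at least 2-fold lower the order turned at a score of 100 or more (4.92%), with a scr peak within 1 kb counted as shared (4.53%) and by implied fragments (9.12%). Sprr1a turned to -0.25 by implied fragments, and Ly6a and Cux1 fell under 2-fold. The causes were not tested. No order against shared peaks turned for the shares near either locus end, for those near 5′ ends or for H3K27me3 of scr. Nor did it turn for nearest genes at least 2-fold higher, with 3.59% (2.66 to 4.74) against 2.94% in the planned classes. The median log2 ratio of nearest genes also stayed above that of shared peaks, with 0.09 against 0.04 for all shared peaks. Outside loci the order turned, with 51.2% against 45.7% in the planned classes and 51.5% against 52.2% under a score of 300. Within 1 kb of 3′ ends it turned by little, with 2.09% against 2.71% in the planned classes and 1.914% against 1.904% under 300. No paired analysis was possible because each condition had 1 library. Read depth is unknown, so weak peaks, 65.1% of the regions, limit what can be said of any single one.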

Other observations

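Of 1854 genes nearest to a region, 1552 had 1 and 16 had 4 or more. The most were around Klhl36 (9, scores 57.19 to 195.73) and Pgbd5 (7) on chromosome 8, where loci were missing from the tables used, so that these counts say little of either gene. Klhl36 was at 2.92 FPKM in scr against 0.8999 in miR-93-5p and 1.52 in mutant. Oxr1 had 6 in 421 kb and a matched locus in mutant alone (54.1 FPKM). Bag3, a co-chaperone, had 5 regions in 27.8 kb (chr7:135669903-135697691, scores 66.92 to 143.81), with RNA at 25.02 FPKM in scr against 26.8 in miR-93-5p and 20.7 in mutant. Myh9, non-muscle myosin heavy chain, had 5 in 45.1 kb (chr15:77649110-77694235, scores 54.99 to 221.82), with 161, 105 and 89.6 FPKM. Phlpp1, a phosphatase, had 6 in 241 kb, with 2.86, 6.51 and 4.13 FPKM. The regions around Oxr1, Phlpp1, Myh9 and Bag3 all scored under 300.

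Besides Ifitm1, C3 and Cxcl15, other genes of the immune response had a region at the start, and those given here were chosen after their values were seen. Csf2 was at 1.02 FPKM in scr, with no matched locus in the other libraries. Tnip3, an inhibitor of NF-kB signalling, had a region of score 127.89 and was at 1.28 FPKM in scr and 2.29 in miR-93-5p. Matched in miR-93-5p alone were Oasl2, an interferon-induced gene (score 85.03, 0.572 FPKM), Il18bp, the decoy receptor of interleukin-18 (score 55.2, 1.60 FPKM), and Ifi211, of a family of close paralogs (score 57.28, 23.6 FPKM). Ifi211 also had a shared peak within 1 kb of its start, and its region lay 800 bp from the start and 986 bp from a scr peak. A missing match means that no locus fitted the gene's extent and is not a level of 0.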
